A study of Homo sapiens with 6 samples.

Results

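Inflammasome genes and interleukin-1 (IL-1) cytokines were examined in NK-92MI cells, a human natural killer (NK) cell line that grows without added interleukin-2 because it carries an interleukin-2 gene. The set held 10 of the 22260 genes measured: the sensors AIM2, NLRP3 and NLRC4, the adaptor PYCARD, the caspases CASP1 and CASP4, the pore protein GSDMD, and the cytokines IL1B, IL18 and IL1A. Every probe set that the platform annotation gave to one of these genes and to no other was taken, which made 111 of the 352859 probe sets on the array. No probe set named one of these genes together with another gene. A probe set is a small group of array probes, here reading about 1 exon, so that one gene is read by several probe sets that share its transcripts and are not replicates of each other.

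The comparison was between 2 groups of 3 arrays each. The Control arrays held total RNA from NK-92MI cells, and the Mitochondrial transfer arrays held total RNA from NK-92MI cells that had received 5 µg of mitochondria isolated from WRL-68 cells, a hepatic cell line, by spinning cells and organelles together. The labels attach the transfer protocol to every sample, so whether the control cells were also spun is not stated. The time from transfer to RNA extraction is not given either, nor whether the replicates were separate cultures, so the p-values measure only the spread between these arrays.

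Inflammasomes are cytosolic complexes that form when a sensor protein detects a danger signal, such as DNA in the cytosol for AIM2 or bacterial flagellin for NLRC4. The sensor recruits the adaptor PYCARD (also called ASC) and caspase-1, which cuts the precursors of IL-1β and IL-18 into their active forms and cuts gasdermin D, whose fragment opens pores in the plasma membrane. NLRP3 and the IL1B transcript are made mainly by monocytes and macrophages after stimulation of Toll-like receptors, whereas NK cells are best known in this pathway as responders to IL-18.

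The values were log2 intensities after robust multi-array average (RMA) processing, so a difference of 1 is a factor of 2. Signal without expression was gauged from olfactory receptor genes, and the 95th percentile of their mean intensity served as background: 6.15 for single probe sets and 6.59 for the brightest probe set of a gene. On this scale 71.9% of all genes and 9 of the 10 genes studied (all but IL1A) lay above background by their brightest probe set, but only 36 of their 111 probe sets did, against 47.3% of all probe sets. These levels are averages over all 6 arrays. By group mean and against 6.59, IL1B (5.66) and IL18 (6.24) were at background in controls, and NLRP3 (6.55) was at background after transfer. The arrays correlated across genes at 0.981 to 0.983 among controls, at 0.969 to 0.972 among transfer arrays and at 0.961 to 0.964 between the groups. All 16 NK cell markers lay above background, with a mean level of 11.06 to 11.22 on the control arrays and 10.87 to 10.99 on the transfer arrays. Of 14 monocyte and macrophage markers measured, 10 were above background, with a mean level of 7.44 to 7.49 in controls and 7.39 to 7.45 after transfer. The 4 that were not were CD14, LYZ, S100A12 and CD163, while markers such as CSF1R, ITGAM, FCN1 and MARCO lay above background. Of 14 hepatocyte markers 11 were above background, with a mean level of 6.999 to 7.23 in controls and 7.16 to 7.24 after transfer. Before adjustment, p was under 0.05 for 2 hepatocyte markers that were higher after transfer (AMBP and APOA1, 14.3%) and 0 that were lower, beside 10.6% and 7.31% of all genes. Among NK cell markers 0 were higher and 6 lower (37.5%), and among monocyte and macrophage markers 1 was higher and 1 lower (7.14% each). The part of these marker differences in the results was not tested. No gene of these 3 marker lists passed the test described next.

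Among the 10 genes, IL1B was the only one that passed the test, and it did so through 1 of its 14 probe sets. AIM2 had all 8 probe sets higher after transfer without passing the test, the brightest probe set of GSDMD was higher while most of its others were lower, and CASP1, CASP4, PYCARD and NLRC4 had brightest probe sets whose group values overlapped and whose means lay within 0.17 of each other. Differences were tested in limma with p-values adjusted by the Benjamini-Hochberg method over all features and a threshold of 0.05. Of the 111 probe sets, 1 was called higher after transfer and 0 lower, beside 0.0578% of all probe sets called higher and 0.0034% called lower. Before adjustment, p was under 0.05 for 10 that were higher and 3 that were lower (9.01% and 2.7%), against 4.68% and 5.36% of all probe sets. All 3 transfer arrays lay above all 3 control arrays in 12 of the 111, 6 of them in AIM2, and below them in 5 (10.8% and 4.5%), against 7.53% and 10.3% of all probe sets. The difference was below 0 in 61 of the 111 (55.0%), as in 54.9% of all probe sets, and its median was −0.06 over the 111 and −0.05 over all.

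With 1 value per gene, taken from the brightest probe set, 1 of the 10 genes was called higher and 0 lower, beside 1.74% and 0.234% of all genes. Before adjustment, p was under 0.05 for 4 of the 10 that were higher (IL1B, AIM2, GSDMD and IL18) and 1 that was lower (NLRP3), against 10.6% and 7.31% of all genes. Groups did not overlap for IL1B, AIM2 and GSDMD, all higher after transfer, and this was so for 13.9% of all genes, while 11.8% of all genes had every transfer array below every control array. When a gene's value was averaged over all its probe sets, 0 of the 10 passed in either direction, beside 0.238% of genes higher and 0.0809% lower. A further test set each probe set against the mean of the other probe sets of its gene, and called 1 of the 111 higher and 0 lower, beside 0.0495% and 0.002% of the probe sets so tested.

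**Figure D1:**
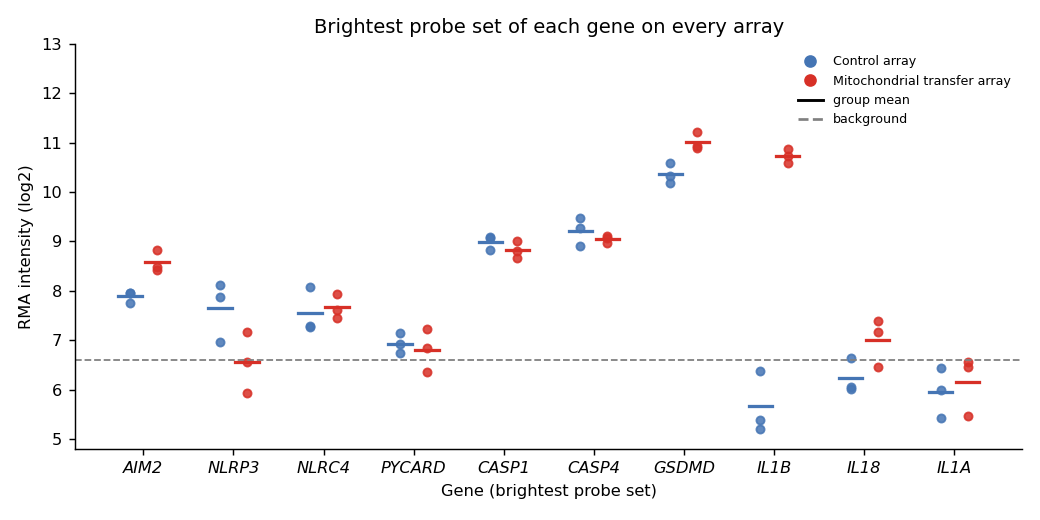
RMA intensity (log2) of the brightest probe set of each of the 10 genes on the 3 Control and 3 Mitochondrial transfer arrays, with short lines at the group means and a dashed line at background (6.59). The transfer arrays of IL1B lie between 10.59 and 10.86 against 5.20 to 6.39 in controls, AIM2 and GSDMD are separated by less, and the other genes overlap.

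AIM2, the sensor of double-stranded DNA in the cytosol, was the only one of the 10 genes with every probe set on one side. Its brightest probe set (16695125) read 7.95, 7.76 and 7.95 in Control 1 to 3 and 8.42, 8.49 and 8.83 in Mitochondrial transfer 1 to 3. Every transfer array was above every control array, with the third transfer array the highest. The means were 7.89 ± 0.11 and 8.58 ± 0.22 (SD, n = 3 each), a difference of 0.69 (SE 0.16, 95% interval 0.31 to 1.07), with a limma adjusted p of 0.0952 over all genes, so the difference did not pass. In bulk RNA a change in the number of cells that express a gene and a change in RNA per cell cannot be told apart.

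All 8 AIM2 probe sets had a higher mean after transfer, by 0.24 to 0.82 with a median of 0.60. In 6 of the 8 the groups did not overlap, 4 had an unadjusted p under 0.05, and none passed after adjustment over all probe sets. The smallest p belonged to the dimmest of them (16695129), which was at background in both groups. It read 4.38, 4.32 and 4.61 in controls and 5.58, 5.19 and 4.99 after transfer, without overlap, with a limma adjusted p of 0.384. The groups overlapped in the remaining pair of probe sets: 16695122 read 7.21, 7.46 and 7.51 in controls against 7.90, 7.06 and 7.97, and 16695127 read 6.43, 6.63 and 7.14 against 6.96, 7.48 and 7.26.

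The mean over the 8 AIM2 probe sets was 6.79, 6.57 and 6.96 in controls and 7.34, 7.28 and 7.42 after transfer. The groups were separated, and the third control array came closest to the transfer arrays. The difference of these means was 0.57 (SE 0.13, 95% interval 0.28 to 0.86), with a limma adjusted p of 0.104 over all genes. Leaving the brightest probe set out gave 0.55. As background, 11 of 899 genes with 8 probe sets (1.22%) had all of them higher after transfer and 41 (4.56%) had all of them lower, and 4 (0.445%) had at least 6 in which the transfer arrays lay above the control arrays. These shares are a description and no test, since the probe sets of a gene share its transcripts. All 8 differences stayed above 0 under each of the 3 other scalings tried. The adjusted p for the mean of the probe sets passed when dim genes were left out (0.0266) and with trend and robust options (0.0166). It lay between 0.143 and 0.302 when any 1 array was left out. By the mean, 200 of all genes were called higher and 795 lower without dim genes. Trend and robust options called 277 higher and 1025 lower, against 53 and 18 in the main fit.

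**Figure D2:**
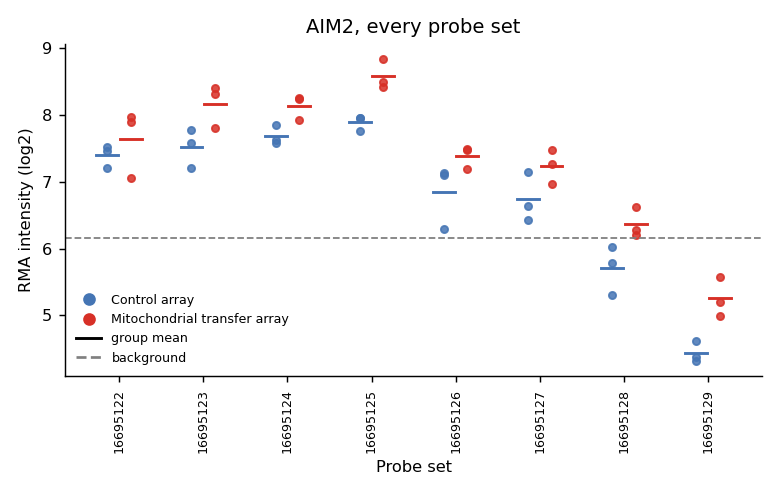
RMA intensity (log2) of each of the 8 AIM2 probe sets on the 6 arrays, with group means as lines and background (6.15) dashed. The transfer mean is above the control mean in all 8, and the groups are separated in 6.

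NLRP3, a sensor that responds to potassium efflux and other signs of cell damage, had 15 probe sets, of which 3 were above background. Its brightest (16679712) read 8.11, 7.88 and 6.96 in controls and 7.17, 6.56 and 5.92 after transfer. The third control array lay below the first transfer array, so the groups overlapped. The means were 7.65 ± 0.61 and 6.55 ± 0.62 (SD, n = 3 each), with a limma adjusted p of 0.219 over all genes. The second mean was under the gene-level background of 6.59 but above the 6.15 for single probe sets. Among the 15 probe sets 8 differences were above 0 and 7 below, and none had separated groups. The next brightest probe set (16679710) read 6.47, 7.28 and 6.64 in controls against 7.05, 7.12 and 7.34, and the third (16679714) read 7.14, 7.06 and 7.14 against 6.25, 7.35 and 6.54. The 3 readings above background thus did not share a direction, and the mean over all 15 probe sets differed by −0.02 (limma adjusted p = 0.922).

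NLRC4, which forms an inflammasome with NAIP proteins that bind flagellin, was read above background by 1 of its 10 probe sets. That probe set (16896307) gave 8.07, 7.27 and 7.30 in controls and 7.44, 7.94 and 7.61 after transfer. The highest single value was a control array, and the groups overlapped. The difference was 0.12 (SE 0.26, 95% interval −0.49 to 0.72, limma adjusted p = 0.845), which did not pass.

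The other 9 NLRC4 probe sets were at background in both groups, and 8 of them had a higher mean after transfer. The lowest p among them was that of 16896298, at 4.55, 3.88 and 3.47 in controls and 5.75, 6.37 and 5.56 after transfer. A second one, 16896303, read 3.09, 2.96 and 2.79 against 3.48, 3.63 and 3.99. Groups were separated in both, with limma adjusted p of 0.243 and 0.397 over all probe sets, and no size is given because both groups were at background. The mean over all 10 probe sets was also separated, with a difference of 0.53 (SE 0.16, limma adjusted p = 0.154), and it rests on these dim readings.

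PYCARD, the adaptor that joins sensors to caspase-1, had 5 probe sets, 2 of them above background. The brightest (16826003) read 7.15, 6.73 and 6.92 in controls and 7.22, 6.36 and 6.84 after transfer. The transfer arrays held both the highest and the lowest of the 6 values. The difference was −0.13 (SE 0.24, 95% interval −0.70 to 0.44, limma adjusted p = 0.822). The next brightest (16826000) read 6.37, 6.86 and 6.99 against 6.82, 7.30 and 6.46, also with overlap. The probe set with the smallest p (16825999) was at background in both groups, at 4.82, 4.02 and 4.67 in controls and 5.93, 6.51 and 5.51 after transfer, separated but with a limma adjusted p of 0.326.

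CASP1 encodes caspase-1, the protease that matures IL-1β and IL-18. Its brightest probe set (16743902) read 9.06, 8.83 and 9.08 in controls and 9.01, 8.67 and 8.80 after transfer. The groups overlapped, with all 6 arrays close together. The difference was −0.16 (SE 0.15, 95% interval −0.53 to 0.20, limma adjusted p = 0.620). Of 16 probe sets, 6 differences were above 0 and 10 below (8 and 8 with quantile normalization or centring on medians), and none had separated groups. The 7 above background differed by −0.87 to 0.24. The smallest p was that of 16743905, at background in both groups, which read 5.24, 5.42 and 6.18 in controls and 5.92, 3.16 and 1.92 after transfer. Its spread lay among the transfer arrays, and its limma adjusted p was 0.566. CARD16, a neighbouring gene, is nearly identical to the start of CASP1, and whether probes read both was not tested.

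CASP4, the human protease that binds bacterial lipopolysaccharide in the cytosol and cuts gasdermin D directly, was read by 12 probe sets, 7 of them above background. The brightest (16743868) read 8.92, 9.26 and 9.48 in controls and 9.12, 9.07 and 8.97 after transfer. The controls held both the highest and the lowest value. The difference was −0.17 (SE 0.18, 95% interval −0.59 to 0.25, limma adjusted p = 0.652). Of the 12 differences 10 were below 0, as were 6 of the 7 above background. Groups were separated in 2 probe sets, in opposite directions. The first, 16743857, read 8.29, 8.08 and 8.11 in controls and 7.88, 7.67 and 7.64 after transfer, a difference of −0.43 (limma adjusted p = 0.517). The second, 16743873, at background in both groups, had the smallest p of the gene, with 2.82, 3.72 and 3.42 against 4.94, 5.47 and 4.25 (limma adjusted p = 0.348).

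GSDMD encodes gasdermin D, the pore-forming end point of the pathway. For its brightest probe set (17073374) the arrays gave 10.59, 10.32 and 10.18 in controls and 10.93, 11.21 and 10.89 after transfer. All 3 transfer arrays were above all 3 controls. The means were 10.36 ± 0.21 and 11.01 ± 0.17 (SD, n = 3 each), a difference of 0.65 (SE 0.17, 95% interval 0.25 to 1.04), with a limma adjusted p of 0.124 over all genes. Its adjusted p was 0.0233 with trend and robust options, 0.196 with the replicate number as a block and 0.156 to 0.310 without any 1 array. The trend and robust options called 750 genes higher by brightest probe set, against 388 in the main fit.

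The other 15 GSDMD probe sets did not share that direction: 4 differences were above 0 and 11 below, with a median of −0.36. Among the 8 probe sets above background, 3 differences were above 0 and 5 below, between −0.60 and 0.65. The lowest of these differences belonged to 17073379, which read 7.83, 8.06 and 8.45 in controls and 7.11, 7.74 and 7.68 after transfer. Its groups were separated in the direction opposite to the brightest probe set, with a limma adjusted p of 0.531. Set against the mean of the other 15, the brightest probe set differed by 0.89 (limma adjusted p = 0.407), so a difference between it and the rest of the gene was not shown. The mean over all 16 differed by −0.18 (limma adjusted p = 0.513).

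**Figure D3:**
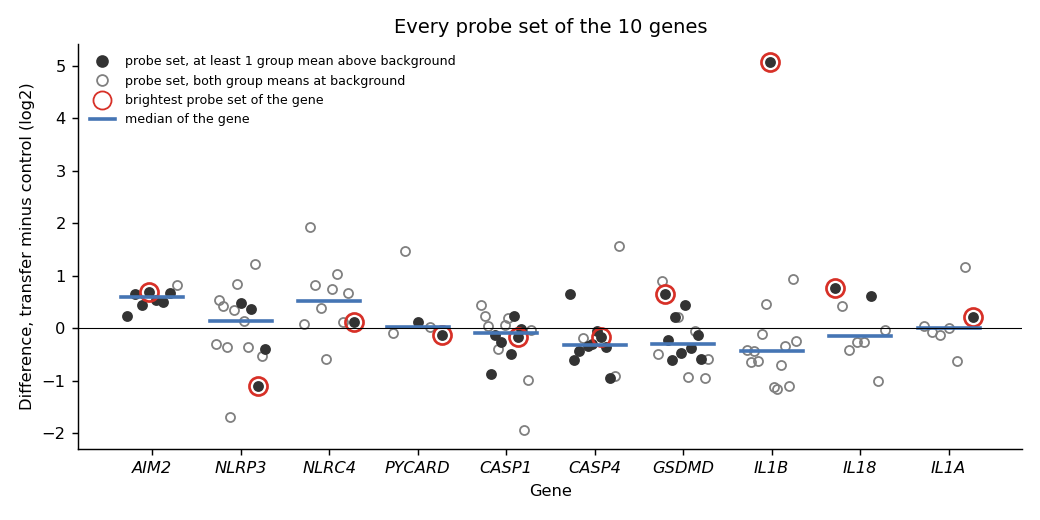
Difference in log2 RMA intensity, transfer minus control, of all 111 probe sets by gene; filled points have at least 1 group mean above background, open grey points have both at background, rings mark the brightest probe set and bars the median of the gene. AIM2 has all 8 points above 0, the ringed IL1B point at 5.07 stands far from its other 13, and most GSDMD and CASP4 points lie below 0.

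IL1B encodes the precursor of IL-1β, the cytokine that inflammasomes are best known for releasing. Its brightest probe set (16901994) read 6.39, 5.20 and 5.39 in Control 1 to 3 and 10.86, 10.72 and 10.59 in Mitochondrial transfer 1 to 3. Each control value was under the gene-level background of 6.59, each transfer value was far above it, and the groups were separated by a gap of 4.20. The measured means were 5.66 ± 0.64 and 10.72 ± 0.14 (SD, n = 3 each), a measured difference of 5.07. Because the controls were at background, the rise is given as at least 4.13 on the log2 scale, with every value below background raised to it. The limma adjusted p was 0.000416 over all genes and 0.025 over all probe sets, and the gene-level call held in 6 of 6 fits that left out 1 array (adjusted p 0.000351 to 0.00474). Over all probe sets the adjusted p was 0.0919 to 0.153 in those 6 fits, in which no probe set of the array passed. This probe set was the brightest of IL1B only through the transfer arrays, so the choice of value was not independent of the change. The fits that left out 1 array kept this choice and did not test it. On the control arrays the brightest was 16901990, which read 6.09, 6.26 and 6.09 in controls and 5.75, 6.43 and 4.38 after transfer, at background in both groups. With each gene's value taken from the brightest probe set of the control arrays, a choice added after the values were seen, IL1B did not pass (limma adjusted p = 0.533).

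The other 13 IL1B probe sets did not show this rise. All 13 had both group means at background, between 1.44 and 6.15, and 11 of the 13 had a lower mean after transfer and 2 a higher one. In 3 of them every transfer array lay below every control array, beside 10.3% of all probe sets. One of these, 16901999, read 5.23, 5.89 and 5.29 in controls and 4.75, 3.82 and 4.56 after transfer (limma adjusted p = 0.409). The mean over the 13 was 3.99, 4.02 and 3.92 in controls and 3.78, 3.57 and 3.32 after transfer, in all cases within background (limma adjusted p = 0.185). Set against the mean of the others, the brightest probe set was higher by 5.49 (limma adjusted p = 0.029), and this call was lost in all 6 fits without 1 array (adjusted p 0.0940 to 0.183). In those 6 fits no probe set of the array passed against the rest of its gene. With the mean of all 14 probe sets as its value IL1B did not pass (limma adjusted p = 0.932). The call for IL1B is thus the call of a single probe set, and what part of the transcript that probe set reads is not given in the sources used here.

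**Figure D4:**
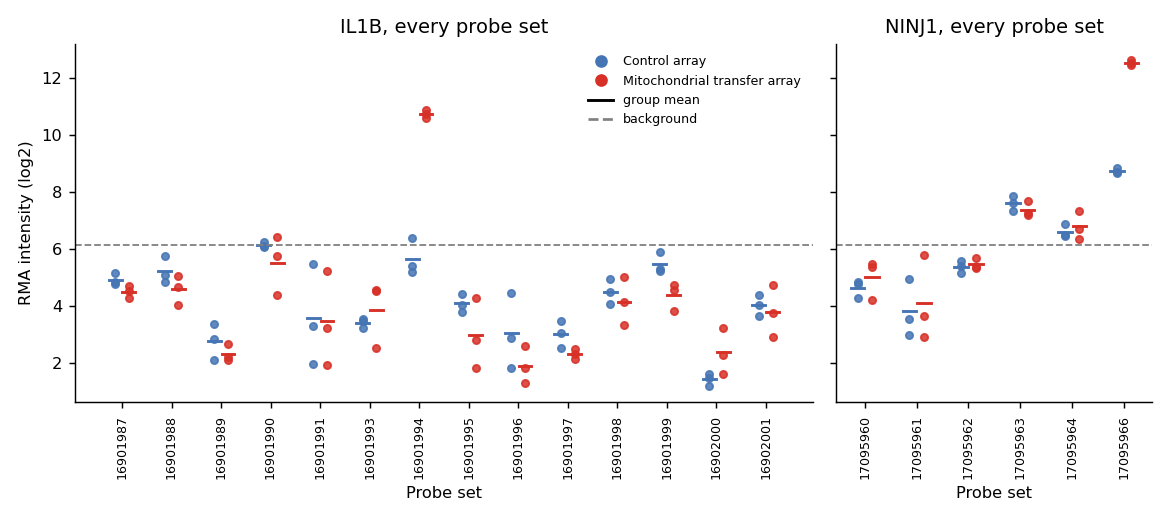
RMA intensity (log2) of each of the 14 IL1B and 6 NINJ1 probe sets on the 6 arrays, with group means as lines and background (6.15) dashed. In each gene a single probe set, 16901994 at 10.59 to 10.86 and 17095966 at 12.45 to 12.61 after transfer, lies apart from the controls, and no other probe set of either gene passed the test.

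IL18 encodes the precursor of IL-18, which raises interferon-gamma production in NK cells. The brightest of its 8 probe sets (16744416) read 6.65, 6.02 and 6.04 in controls and 7.39, 7.17 and 6.46 after transfer. The third transfer array lay below the first control array, so the groups overlapped. The means were 6.24 ± 0.36 and 7.005 ± 0.49 (SD, n = 3 each), with a limma adjusted p of 0.233 over all genes. The control mean was under the gene-level background of 6.59 but above the 6.15 for single probe sets. The second brightest (16744422) read 5.21, 6.19 and 5.996 against 6.85, 5.69 and 6.70, also with overlap. The other 6 probe sets were at background in both groups, and over all 8 there were 3 differences above 0 and 5 below (4 and 4 with centring on medians).

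IL1A encodes IL-1α, an alarmin that is active without cleavage by caspase-1. The brightest of its 7 probe sets (16901982) read 6.43, 5.98 and 5.43 in controls and 6.55, 5.46 and 6.45 after transfer. Both means were under the gene-level background of 6.59, the groups overlapped and the limma adjusted p was 0.800. The probe set with the smallest p (16901981) read 1.72, 3.89 and 2.88 against 4.97, 4.28 and 2.75 (limma adjusted p = 0.635). None of the 7 averaged above background, so the size of any IL1A difference is not interpreted.

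**Figure D5:**
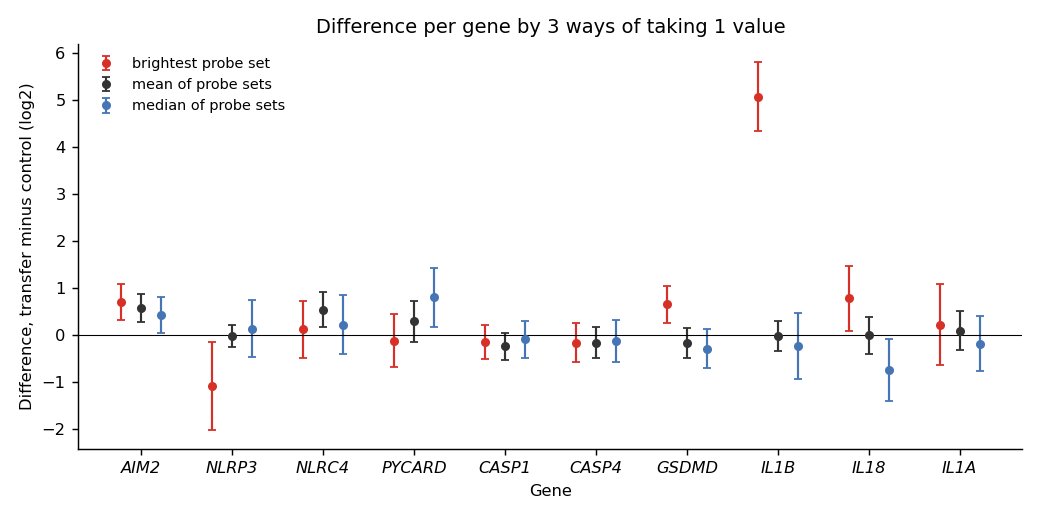
Difference in log2 RMA intensity, transfer minus control, of the 10 genes with 95% intervals when each gene is represented by its brightest probe set, the mean or the median of its probe sets. The IL1B value is 5.07 by its brightest probe set and −0.03 by the mean, while AIM2 lies between 0.43 and 0.69.

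Across the 10 genes, the brightest probe set and the median of the others had opposite signs in 6. The median over all of a gene's probe sets was above 0 in 4 genes (AIM2, NLRC4, NLRP3 and PYCARD) and below 0 in 6, and AIM2 was the only gene with every difference on one side. For GSDMD, IL18, PYCARD and IL1B the difference had one sign by the brightest probe set and the other by the mean of all probe sets.

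Other genes of the pathway were read from 6 lists with 90 genes in all, of which 86 were measured. By brightest probe set 1 was called higher and 0 lower, beside 1.74% and 0.234% of all genes. Before adjustment, p was under 0.05 for 6 that were higher (6.98%) and 13 that were lower (15.1%), beside 10.6% and 7.31% of all genes. The median difference was 0.01, beside 0.00 over all genes.

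The gene called was NINJ1, which encodes ninjurin-1, the protein that ruptures the plasma membrane after gasdermin pores have formed. Its brightest probe set (17095966) read 8.69, 8.67 and 8.85 in controls and 12.50, 12.45 and 12.61 after transfer. The groups were far apart, with little spread in either. The means were 8.74 ± 0.10 and 12.52 ± 0.08 (SD, n = 3 each), a difference of 3.79 (SE 0.13), with a limma adjusted p of 5.15e-05 over all genes and 0.0133 over all probe sets. As with IL1B, the other probe sets did not follow: of 5, 4 differences were above 0 and 1 below, with a median of 0.18, and none passed. Set against them the brightest probe set was higher by 3.64 (limma adjusted p = 0.0390). Both calls over probe sets were lost in all 6 fits without 1 array (adjusted p 0.115 to 0.128 over all probe sets and 0.137 to 0.242 against the rest), while the call over all genes held in all 6. In those 6 fits no probe set of the array passed either test over probe sets. This probe set was also the brightest of NINJ1 on the control arrays alone (limma adjusted p = 0.000428 with that choice for every gene), and the mean of all 6 probe sets differed by 0.75 (limma adjusted p = 0.0997).

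Among the other sensors, adaptors, caspases and pore proteins, 24 of 25 were measured, and besides NINJ1 none passed. Of these 24, 1 was higher (4.17%) and 6 were lower (25.0%) with p under 0.05 before adjustment, beside 10.6% and 7.31% of all genes, and the median difference was −0.08. Of 9 inhibitors measured, 0 passed in either direction. The smallest p was that of PYDC1, a pyrin-domain protein that binds PYCARD (limma adjusted p = 0.127). PYDC1 was at background in both groups, at 4.91, 4.61 and 5.13 in controls and 5.48, 5.50 and 5.95 after transfer. Of 9 other IL-1 family ligands and antagonists, 0 passed, and the smallest p was that of IL1F10 (IL-38, limma adjusted p = 0.218). Its brightest probe set read 7.01, 7.01 and 6.82 in controls and 7.80, 7.14 and 7.51 after transfer, with means of 6.95 and 7.48. Of its 9 probe sets 4 had a difference above 0, and the mean over all 9 differed by −0.005 (limma adjusted p = 0.991).

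Downstream of the cytokines, 0 of 10 IL-1 family receptors passed. The smallest p there was that of IL18RAP, the accessory chain of the IL-18 receptor, which read 10.76, 11.12 and 11.19 in controls and 10.52, 10.35 and 10.56 after transfer. Its groups were separated, with a difference of −0.55 (SE 0.16, limma adjusted p = 0.160). Of 16 genes that signal from IL-1 receptors to NF-kB, 0 passed, and the smallest p was that of the kinase IRAK1, at 10.99, 10.91 and 11.06 against 10.37, 10.47 and 10.38. These groups too were separated, with a difference of −0.58 (SE 0.13, limma adjusted p = 0.0797). Of 20 NF-kB target genes often induced by IL-1, 0 passed, and the median difference was 0.05. Unadjusted p was under 0.05 in 2 that were higher (10%) and 3 that were lower (15%), beside 10.6% and 7.31% of all genes. The smallest p among these was that of the chemokine gene CCL2, at background in both groups (limma adjusted p = 0.156).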

How the data were processed

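Total RNA of 3 Control and 3 Mitochondrial transfer samples of NK-92MI cells was measured on Affymetrix whole-transcript arrays, 1 array per sample, and precision is limited by that small number. The deposited values are log2 intensities that the authors made with RMA (background correction, quantile normalization and summary per exon-level probe set) in Affymetrix Power Tools, with version, genome build and probe filter not given in the sources used here. RMA draws weak probe sets towards each array's noise level, so differences near background are compressed or unstable. No further normalization was applied.

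Probe sets were named by the platform annotation, with old symbols updated through RefSeq synonyms. Of 352859 probe sets, 259224 named 1 gene, 13116 several and 80519 none. Per gene, the value used was the brightest probe set by its average on all 6 arrays, or the average of all its probe sets. Each probe set of genes with at least 4 was also set against the mean of the others. All fits used lmFit and eBayes at their default options in limma 3.58.1 under R 4.3.3 with the data.table package (version 1.17.8). Tests were two-sided, and the code was tested on simulated data.

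Values on all arrays are given for each member's brightest probe set, any probe set that passed and the one with the smallest p, and for pathway lists the genes that passed or else the one with the smallest p. Other probe sets and marker genes were chosen for mention after their values were seen. Members and lists were chosen with earlier results of these data known. NLRP7, CARD17, PYDC5, IRAK4, CD68 and FCGR1A are read by no probe set of their own and were not analysed here. T cell, B cell and epithelial markers were also read, and no gene of these lists passed. Alternatives were quantile, cyclic loess and median scaling, a filter on dim features, trend and robust options, array weights, a replicate block, the methods' t-test, leaving out each array, and other values per gene.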

Additional observations from a re-analysis of the deposited data

How the results depend on the processing

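The brightest IL1B probe set was above its controls in every fit run. Its call over all genes held under each scaling, filter, weighting, test, block and left-out array tried, but not with other values per gene. The fits in which the call held all kept this probe set. It was the brightest of IL1B only through the transfer arrays, so those fits did not test that choice. Its control mean was at background, so it passed the filter on dim features through the transfer arrays. With the brightest probe set of the control arrays, added after seeing the data, 0 members were called higher, and IL1B, then read by another probe set, was at −0.63. Its difference was 4.84 to 5.43 without 1 array. With the mean, the median or, an alternative chosen after seeing the data, the mean of probe sets other than the brightest as the value of a gene, 0 members and 0 pathway genes were called higher. The sign then turned for IL1B (−0.028, −0.25 and −0.42), IL18 (−0.017, −0.75 and −0.13), PYCARD (0.28, 0.79 and 0.38) and GSDMD (−0.18, −0.30 and −0.24), for NLRP3 by the median (0.13) and without the brightest (0.053), and for IL1A by the median (−0.19), none with a call. Without 1 array the brightest probe sets spanned −0.021 to 0.38 for NLRC4 (−0.019 without Control 2, −0.0066 without Control 3 and −0.021 without Mitochondrial transfer 2), −0.049 to 0.56 for IL1A (−0.049 without Control 3) and −0.33 to 0.10 for PYCARD (0.10 without Mitochondrial transfer 2). Over single probe sets, and over probe sets against the rest of their gene, 0 probe sets of the whole array were called without any 1 array. The count for members was thus also 0. Pathway genes lower numbered 0 to 2 in those fits, the 2 being CCL2 and NLRP1 without Mitochondrial transfer 1.

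The labels number the replicates alike in both groups, but same-numbered arrays did not deviate together (correlations 0.0691, 0.00751 and 0.00761), so the numbers were not taken as pairs. With the replicate number as a block, 0 probe sets of the whole array were called, alone or against the rest of their gene, and so 0 of the members. The adjusted p was 0.413 and 0.452 for both IL1B and NINJ1. The same counts of 0 for member probe sets came from the methods' test after adjustment. By brightest probe set per gene, that test called IL1B and the pathway gene NINJ1 higher and 1 pathway gene lower (IRAK1). Over the whole array that test called 26 probe sets higher and 13 lower, and 1 higher and 0 lower against the rest of their gene. Unadjusted, the methods' test counted 9 member probe sets higher and 2 lower (4.55% and 5.95% of all probe sets), 3 member genes higher by brightest probe set (9.49% of all genes), 2 by the mean (5.42%), 5 probe sets higher and 1 lower against the rest of their gene (4.70% and 3.23%), and 5 pathway genes higher and 11 lower (9.49% and 7.53% of all genes). Without dim features 1 member passed by the mean of probe sets (AIM2) and 2 pathway genes were lower (GSDME and IRAK1). Among all genes 551 were then higher and 139 lower by brightest probe set, and 200 higher and 795 lower by the mean. With trend and robust options 2 members passed by brightest probe set (IL1B and GSDMD), 1 by the mean (AIM2), and 5 pathway genes were lower (CARD8, GSDME, IL18RAP, IRAK1 and MYD88). Among all genes 750 were then higher and 326 lower by brightest probe set, and 277 higher and 1025 lower by the mean. The main fit called 388 higher and 52 lower by brightest probe set, and 53 higher and 18 lower by the mean. Over the alternatives run in limma, calls ranged from 0 to 935 probe sets higher and 0 to 241 lower. By brightest probe set they ranged from 154 to 750 genes higher and 1 to 326 lower. By the mean of all probe sets they ranged from 6 to 277 higher and 0 to 1025 lower. With the mean of probe sets other than the brightest, 10 genes were called higher and 0 lower. The causes were not tested. The genes in parentheses were named after their values were seen. Signal limits what can be read here: 36 of the 111 member probe sets averaged above background.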
